A study of Homo sapiens with 4 samples.

Results

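The 6 genes described here encode members of the PARP family: TIPARP, PARP1, PARP8, PARP9, PARP14 and PARP15. They were chosen by name, as the features of the array table that the platform annotates with exactly 1 symbol, that symbol being 1 of the 6. Each gene had 1 such feature, so the members were 6 of 13493 features, or 6 of the 6647 features with a single symbol. The table covered chromosomes 1 to 5, and family members encoded on other chromosomes were not analysed here. PARP3, which also lies on chromosome 3, was not a member and is given with the related genes.

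RNA came from SK-N-SH, an adherent human neuroblastoma line. In the TCDD group, cells at 70% confluency were exposed for 24 h to 2,3,7,8-tetrachlorodibenzo-p-dioxin (TCDD) at 1e-10 M in dimethyl sulfoxide (DMSO), and the DMSO group received DMSO, which stood at 0.1% or lower in all treatments. There were 2 TCDD arrays and 2 DMSO arrays of the Affymetrix Human Transcriptome Array, each called a biological replicate in the sample titles, with no culture, day or hybridisation batch given. The p-values below therefore rest on the spread between these arrays. Those by limma also borrow spread from the other features, with 2 residual and 4.27 prior degrees of freedom. The small number of arrays limits the precision of every value. SK-N-SH is 1 long-established tumour line, and its dose and time were single points.

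ADP-ribosyltransferases take ADP-ribose from NAD and attach it to proteins or nucleic acids, either as single units or as chains. PARP1 builds chains at DNA breaks, where they recruit repair and chromatin factors, whereas TIPARP, PARP8, PARP14 and PARP15 are known as transferases of single units. TIPARP, also called PARP7, is a textbook target of the aryl hydrocarbon receptor (AhR), the transcription factor that TCDD activates, and it modifies that receptor and restrains it. PARP9 works in a complex with the ubiquitin ligase DTX3L, and PARP9, DTX3L and PARP14 are induced by interferon in many cell types.

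The promoters below are shown because TIPARP is the member that AhR is known to induce, and because PARP9 and PARP14 lie near each other on chromosome 3 and had unlike differences in the arrays. Sequences are from RefSeq on GRCh38.p14 and run 5′ to 3′ on the strand of the gene. For TIPARP the 250 bases before the first listed start are printed, from chr3:156674340-156674589 on the plus strand, with each match to the AhR response element core, GCGTG on either strand, in capitals.
TIPARP: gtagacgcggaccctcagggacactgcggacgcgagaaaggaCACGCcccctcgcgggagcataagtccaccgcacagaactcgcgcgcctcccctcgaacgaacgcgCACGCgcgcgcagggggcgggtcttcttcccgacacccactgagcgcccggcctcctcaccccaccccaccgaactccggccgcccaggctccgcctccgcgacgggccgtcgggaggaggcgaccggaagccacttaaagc
For PARP14 the 250 bases before the start are printed, from chr3:122680589-122680838 on the plus strand, with the interferon response element core in capitals, searched as GAAA, any 2 bases and GAAA again on either strand.
PARP14: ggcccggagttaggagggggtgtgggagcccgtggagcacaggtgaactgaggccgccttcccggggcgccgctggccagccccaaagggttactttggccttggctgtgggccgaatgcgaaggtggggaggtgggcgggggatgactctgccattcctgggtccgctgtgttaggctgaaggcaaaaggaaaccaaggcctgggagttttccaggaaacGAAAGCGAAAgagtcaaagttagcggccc
Of the 2 listed starts of PARP9, the second lies 38 bases from the listed start of DTX3L, on the opposite strand. For these, the same 30 bases are printed as each gene reads them, from chr3:122564322-122564351, with that core in capitals.
PARP9, minus strand: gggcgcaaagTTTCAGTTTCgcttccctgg
DTX3L, plus strand: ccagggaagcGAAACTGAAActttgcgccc

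RefSeq listed 12 windows for the 6 genes, each running from 250 bases before to 50 bases after a start. The AhR core was present in 4 of them: 1 of 3 for TIPARP, 1 of 1 for PARP1 and 2 of 3 for PARP8. In the TIPARP window the matches began at positions -208 and -142 from the start. Among all 35116 promoter windows of the same length, 36.5% held GCGTG on either strand, so the presence of this short motif is common. The interferon core was present in 2 of the 12 windows, that of PARP14 at position -29 and the second of PARP9 at position -41, and in the window of DTX3L at position -6, where it is the same stretch as in PARP9. Of all windows, 3.57% held it. These matches describe letters in the genome and carry no information on binding in these cells.

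Over the whole table, the medians of the 4 arrays lay between 8.19 and 8.22 on the log2 scale. The arrays correlated across features at 0.999 for the TCDD pair and 0.997 for the DMSO pair, against 0.989 to 0.994 between groups. Interquartile ranges were 2.209 and 2.203 on the TCDD arrays, against 2.13 and 2.005 on the DMSO arrays, so DMSO replicate 2 had the narrowest distribution. All 7 measured noradrenergic neuroblastoma markers and all 6 mesenchymal neuroblastoma markers lay above 8.38, the mean signal below which 95% of 71 olfactory receptor features lay. In contrast, 2 of 11 immune, 1 of 4 endothelial, 0 of 2 epithelial and 2 of 3 Schwann and glial markers lay above that level. In such bulk samples, fewer cells of a type and less RNA per cell cannot be told apart.

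None of the 6 members was called between TCDD and DMSO by limma at an adjusted p under 0.05, against 17.4% of all features (9.41% higher and 8.01% lower in TCDD). At an unadjusted p under 0.05 by limma, 2 of 6 members passed, PARP1 and PARP14, against 39.5% of all features (22.8% with TCDD higher). The TCDD arrays lay wholly above the DMSO arrays for 3 members (PARP1, PARP8 and PARP14), against 40.7% of all features, and the groups overlapped for the other 3. In either direction, the groups were separate for 71.7% of all features. The median difference of the members, TCDD mean minus DMSO mean on the log2 scale, was 0.067, beside 0.023 over all features and 0.066 over protein-coding features. The member median lay near that of protein-coding features. With 6 members, the shares are too coarse to be compared closely with those of the whole table.

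**Figure D1:**
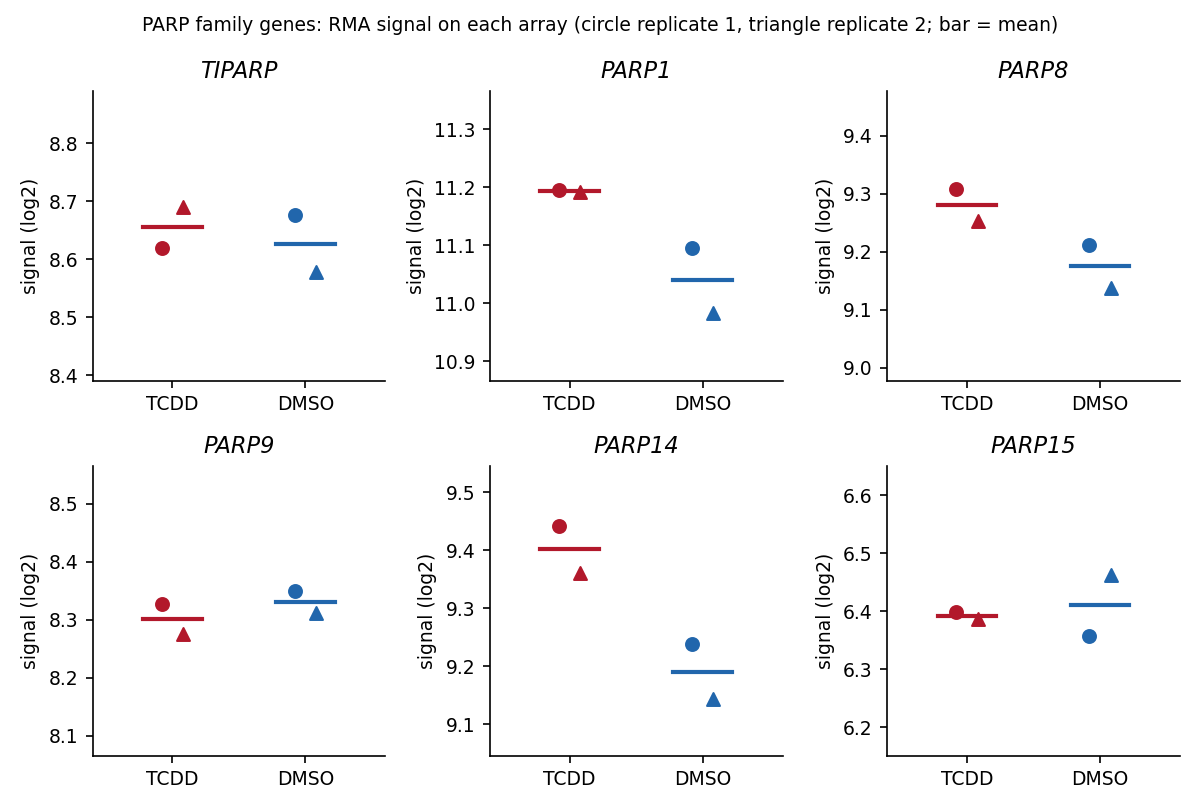
RMA signal (log2, vertical axes that each span the same range) of the 6 PARP family genes on the TCDD arrays (red) and the DMSO arrays (blue), with circles for replicate 1, triangles for replicate 2 and bars for means of 2 arrays. The groups are separate for PARP1, PARP8 and PARP14, and overlap for TIPARP, PARP9 and PARP15.

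TIPARP, the AhR-induced member, read 8.62 and 8.69 on the TCDD arrays, against 8.68 and 8.58 on the DMSO arrays (log2 signal). The highest and the lowest of the 4 values were TCDD replicate 2 and DMSO replicate 2, and the values of the groups interleaved. The difference was 0.028 (limma SE 0.060, adjusted p = 0.745), which is 1.02-fold (95% interval 0.922-fold to 1.13-fold). That interval holds for this fit alone and rests on 2 arrays per group. Within it lie rises of up to 1.13-fold in this gene-level signal, and falls to 0.922-fold. Without DMSO replicate 1 the difference was 0.077, and under median centring it was 0.038. The difference was -0.0044 after cyclic loess normalization, and it was -0.021 without DMSO replicate 2 and -0.0078 without TCDD replicate 2, so its sign was not settled. An exact permutation test over the 4 arrays gave p = 0.667, and with 2 arrays per group that test cannot go below 0.333.

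The antisense RNA gene TIPARP-AS1, which neighbours TIPARP, had 2 features. One read 7.81 and 7.89 in TCDD, against 7.88 and 8.00 in DMSO, and differed by -0.094 (SE 0.063, limma adjusted p = 0.299). The other, dimmer feature read 6.02 and 5.97 in TCDD, against 6.01 and 6.07 in DMSO, and differed by -0.048 (SE 0.054, limma adjusted p = 0.521). The groups overlapped in both features, as they did for TIPARP itself. Of the protein-coding genes near TIPARP, SSR3, a subunit of the translocon-associated complex, differed by 0.16 (SE 0.050, limma adjusted p = 0.077), and LEKR1 by -0.091 (SE 0.057, limma adjusted p = 0.266). Quantile normalization gave 0.016 for SSR3 and -0.035 for LEKR1.

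PARP1, the main chain-building enzyme of the DNA break response, read 11.20 and 11.19 on the TCDD arrays, against 11.10 and 10.98 on the DMSO arrays. The TCDD arrays were almost identical and lay above both DMSO arrays, which were further apart. The difference was 0.15 (limma SE 0.059, adjusted p = 0.108), which is 1.11-fold (95% interval 1.01-fold to 1.23-fold), and it did not pass. It was 0.044 under quantile normalization and 0.038 after cyclic loess normalization. With DMSO replicate 1 left out, 0.21 passed (limma adjusted p = 0.034), and with DMSO replicate 2 left out, 0.098 did not (limma adjusted p = 0.167). Such fits leave 1 DMSO array, which is assumed to vary like the TCDD pair.

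PARP8, a less studied transferase of single units, read 9.31 and 9.25 on the TCDD arrays, against 9.21 and 9.14 on the DMSO arrays. All TCDD values lay above all DMSO values. The difference was 0.11 (95% interval -0.029 to 0.24, limma SE 0.056, adjusted p = 0.203), and it was 0.032 under quantile normalization and 0.019 after cyclic loess normalization.

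PARP14, a large macrodomain protein linked to interferon and STAT6 signalling, had the largest difference among the members. It read 9.44 and 9.36 on the TCDD arrays, against 9.24 and 9.14 on the DMSO arrays. The groups were separated by more than the distance between the arrays of either group. The difference was 0.21 (limma SE 0.061, adjusted p = 0.059), which is 1.16-fold (95% interval 1.05-fold to 1.28-fold), and it narrowly did not pass. Quantile and cyclic loess normalization each gave 0.12, with a limma adjusted p of 0.129 for quantile and 0.125 for cyclic loess, while median centring gave 0.22 (limma adjusted p = 0.057). With DMSO replicate 1 left out, 0.26 passed (limma adjusted p = 0.041), and with DMSO replicate 2 left out, 0.16 did not (limma adjusted p = 0.133), again with the spread taken from the TCDD pair alone. With the dimmest 25% of features left out, 0.21 passed (limma adjusted p = 0.048).

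PARP9, the partner of DTX3L, read 8.33 and 8.28 on the TCDD arrays, against 8.35 and 8.31 on the DMSO arrays. The groups overlapped, and the difference was -0.029 (95% interval -0.16 to 0.099, limma SE 0.053, adjusted p = 0.699). PARP15, a small macrodomain relative of PARP14, read 6.40 and 6.39 on the TCDD arrays, against 6.36 and 6.46 on the DMSO arrays. Both TCDD values fell between the DMSO values, and the difference was -0.018 (95% interval -0.16 to 0.12, limma SE 0.058, adjusted p = 0.830). It was 0.040 under quantile normalization, 0.050 after cyclic loess normalization and 0.035 without DMSO replicate 2. PARP9 and PARP15 both had mean signals under 8.38, the olfactory receptor level given above.

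**Figure D2:**
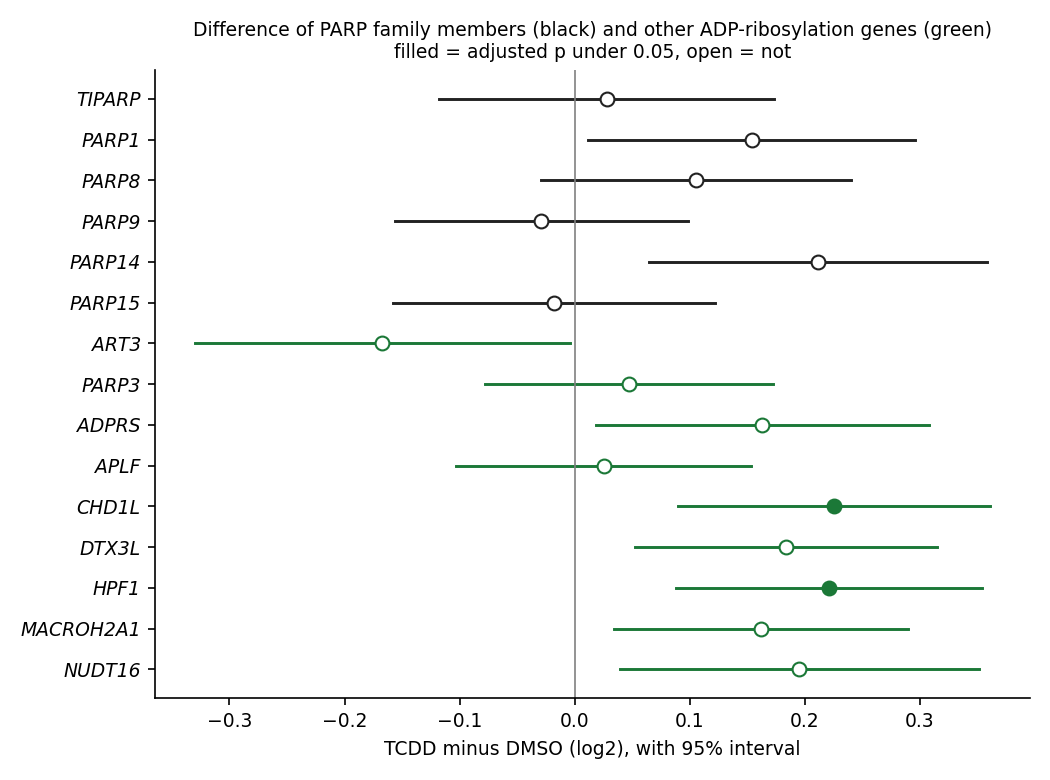
TCDD minus DMSO difference (log2, horizontal axis) with its 95% interval for the 6 members (black) and for 9 other genes of ADP-ribosylation (green), with filled points for genes called at an adjusted p under 0.05. No member is filled, the intervals of PARP1 and PARP14 lie above 0, and HPF1 and CHD1L are the filled points.

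DTX3L, the ubiquitin ligase that binds PARP9, read 9.70 and 9.70 on the TCDD arrays, against 9.48 and 9.56 on the DMSO arrays. Its groups were separate, and its difference was 0.18 (SE 0.054) and missed the threshold (limma adjusted p = 0.063). PARP9, across the shared promoter stretch printed above, gave -0.029. The DTX3L difference was 0.064 under quantile and 0.074 after cyclic loess normalization. Taken within each array, DTX3L minus PARP9 (log2) was 0.21 higher in TCDD, with 0.085 under quantile and 0.10 after cyclic loess normalization. An exact permutation test of that change gave p = 0.333. PARP14 minus PARP9 was 0.24 higher in TCDD, with 0.14 under quantile and 0.15 after cyclic loess normalization. An exact permutation test of this change also gave p = 0.333. With 2 arrays per group that test cannot go lower, so it cannot decide whether DTX3L or PARP14 differed from PARP9 in response.

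The genes next to PARP9, PARP14 and PARP15 on chromosome 3 included some with differences above that of PARP14. The neighbours were listed under 12 names, which stand for 10 genes, DTX3L among them, and all 10 were measured. Of these, 2 rose and 0 fell by limma at an adjusted p under 0.05, beside 9.41% of all features called higher in TCDD. WDR5B, a WD-repeat gene, read 8.93 and 8.98 in TCDD, against 8.70 and 8.65 in DMSO, a rise of 0.28 (SE 0.054, limma adjusted p = 0.024). FAM162A, which encodes a mitochondrial protein, read 9.87 and 9.78 in TCDD, against 9.64 and 9.55 in DMSO, a rise of 0.23 (SE 0.060, limma adjusted p = 0.047). The median difference of the 10 was 0.19, with a range from -0.18 to 0.28. The lowest was that of CSTA, a cysteine protease inhibitor of epithelia (limma adjusted p = 0.074). FAM162A was not called under quantile (0.11) or cyclic loess normalization (0.12), and WDR5B was called under both (0.26 and 0.23). The list median was then 0.087 and 0.085.

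The size of a difference was related to how bright a feature was. When all features were divided by mean signal into 5 classes of equal size, the median difference was -0.053, -0.052, -0.017, 0.072 and 0.12, in order of rising signal. PARP1 lay in the brightest class, TIPARP, PARP8 and PARP14 in the next, PARP9 in the middle class and PARP15 in the dimmest. The differences of 5 members lay between the quartiles of their own class. PARP14 alone among the members lay outside them, with 0.21 against an upper quartile of 0.16. PARP1, PARP8 and PARP14 moved toward 0 under quantile and cyclic loess normalization, and away from 0 under median centring (0.16, 0.12 and 0.22).

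**Figure D3:**
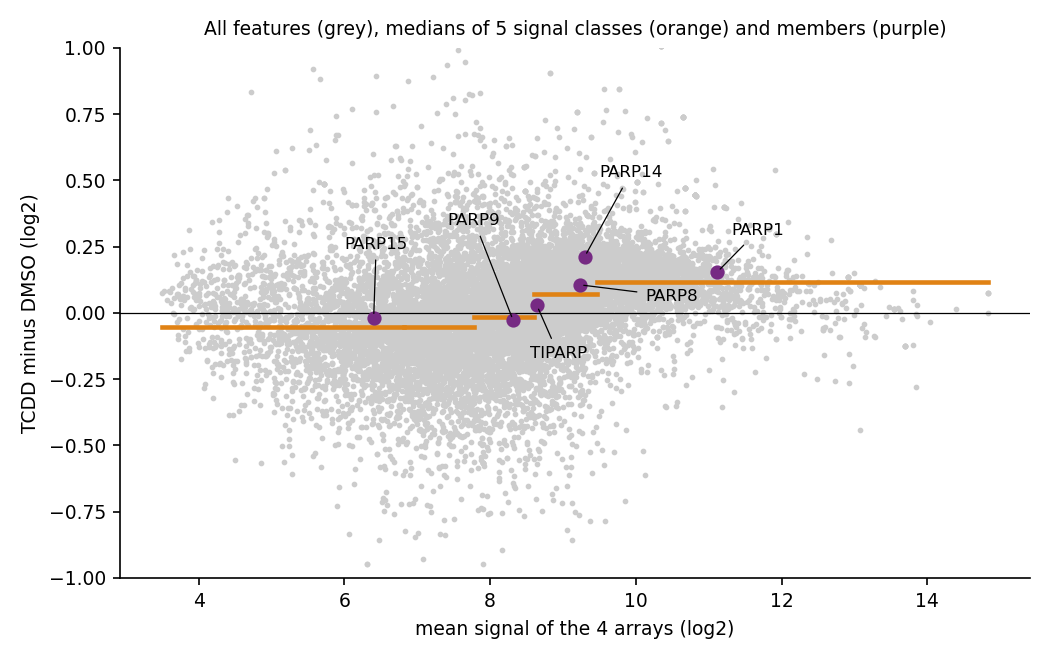
TCDD minus DMSO difference (log2, vertical axis) against mean signal of the 4 arrays (log2, horizontal axis) for all features (grey), with the median of each of 5 signal classes (orange bars) and the 6 members (purple), and with 36 features lying beyond the plotted range of 1. The class medians go from -0.053 in the dimmest class to 0.12 in the brightest, and PARP14 lies furthest above the median of its class.

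Among cofactors, readers and hydrolases of ADP-ribosylation, 7 of 17 listed genes were measured. Of the 7, 2 rose and 0 fell by limma, beside 9.41% of all features called higher in TCDD. HPF1, the factor that joins PARP1 to direct ADP-ribose onto serine, read 9.75 and 9.71 in TCDD, against 9.54 and 9.47 in DMSO, a rise of 0.22 (SE 0.055, limma adjusted p = 0.043). CHD1L, a chromatin remodeller that binds the chains made by PARP1, read 9.50 and 9.46 in TCDD, against 9.30 and 9.21 in DMSO, a rise of 0.23 (SE 0.056, limma adjusted p = 0.043). Neither was called under quantile normalization (0.11 for HPF1 and 0.12 for CHD1L), after cyclic loess normalization (0.11 and 0.13), with array weights (adjusted p = 0.052 and 0.051), without DMSO replicate 2 (0.18 each), without TCDD replicate 1 (0.20 and 0.21) or without TCDD replicate 2 (0.24 each).

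The other genes of that list lay in the same direction without passing. The hydrolase ADPRS, which removes ADP-ribose from serine, differed by 0.16 (SE 0.060, limma adjusted p = 0.098), the macrodomain histone MACROH2A1 by 0.16 (SE 0.053, limma adjusted p = 0.077), the hydrolase NUDT16 by 0.20 (SE 0.064, limma adjusted p = 0.080) and the chain-binding repair factor APLF by 0.025 (SE 0.053, limma adjusted p = 0.741). Under quantile and cyclic loess normalization ADPRS gave 0.056 each, MACROH2A1 0.036 and 0.035, and NUDT16 0.15 and 0.13, while APLF gave 0.062 and 0.059. The list median was 0.18, against 0.064 and 0.074 under those scalings, and 6 of the 7 genes lay above the olfactory receptor level. These 6 lay in the signal classes where the medians of all features were 0.072 and 0.12. Of 15 listed other transferases, 2 were measured. By limma, 0 of the 2 passed at an adjusted p under 0.05, beside 17.4% of all features. ART3 alone passed at an unadjusted p under 0.05 by limma, beside 39.5% of all features. PARP3, a DNA break sensor like PARP1, read 9.63 and 9.66 in TCDD, against 9.62 and 9.57 in DMSO, and differed by 0.047 (SE 0.052, limma adjusted p = 0.512), with the sign turned under quantile (-0.069) and cyclic loess normalization (-0.062). ART3, an ecto-ADP-ribosyltransferase gene, read 6.44 and 6.44 in TCDD, against 6.52 and 6.69 in DMSO, and differed by -0.17 (SE 0.067, limma adjusted p = 0.120).

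Genes that make or use NAD, the substrate of the active transferases, varied in direction. Of 28 listed 14 were measured, with 6 differences above 0 and 8 below, and a median of -0.021. Beside 9.41% of all features called higher in TCDD, 1 of the 14 genes rose by limma. It was NUDT12, a peroxisomal hydrolase of NAD and NADH, which read 8.85 and 8.77 in TCDD, against 8.60 and 8.57 in DMSO (0.22, SE 0.054, limma adjusted p = 0.042). NUDT12 did not pass under quantile (0.21, limma adjusted p = 0.053) or cyclic loess normalization (0.18, limma adjusted p = 0.051), where the list median turned to 0.0045 and 0.011. The list labelled single-strand break and base excision repair also held genes of other repair and checkpoint pathways, among them XRCC4, RAD50, BARD1, MSH6 and ATR. Of its 31 genes, 14 were measured. Of the 14, 0 passed by limma at an adjusted p under 0.05, beside 17.4% of all features. At an unadjusted p under 0.05 by limma, 4 passed, beside 39.5% of all features. The median difference of the 14 was 0.11, with 13 above 0. It was 0.039 under quantile and 0.025 after cyclic loess normalization, with 9 above 0 in each. All 14 lay above the olfactory receptor level, in the signal classes where medians were above 0.

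In the list of the AhR complex and its targets, which left out TIPARP itself, 9 of 24 genes were measured by 11 features. Of the 11, 2 features rose and 0 fell by limma, beside 9.41% of all features called higher in TCDD. The dimmer of a pair of CYP1B1 features read 7.93 and 7.97 in TCDD, against 7.74 and 7.69 in DMSO, a rise of 0.24 (SE 0.052, limma adjusted p = 0.033), while the brighter gave -0.012 (SE 0.055, limma adjusted p = 0.888). The dimmer feature lay under the olfactory receptor level, with a mean signal of 7.83, and the brighter just above it, at 8.41. The other feature that rose was that of LMCD1, a LIM-domain cofactor (0.20, SE 0.052, limma adjusted p = 0.048), but it missed the threshold under quantile (0.13) or cyclic loess normalization (0.11). ARNT, the partner of AhR on DNA, read 10.07 and 10.07 in TCDD, against 9.95 and 9.89 in DMSO, and did not pass (0.15, SE 0.053, limma adjusted p = 0.089), with 0.017 under quantile and 0.030 after cyclic loess normalization. The median of the 11 features was 0.075.

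Of 39 listed interferon-stimulated genes, 33 were measured. Beside 9.41% of all features called higher in TCDD, 1 of the 33 genes rose and 0 fell by limma. It was IFI6, a mitochondrial protein of the interferon response, which read 10.94 and 11.00 in TCDD, against 10.78 and 10.73 in DMSO (0.21, SE 0.055, limma adjusted p = 0.047). It did not pass under quantile (0.053, limma adjusted p = 0.392) or cyclic loess normalization (0.089, limma adjusted p = 0.221). The list median was 0.053, and 24 genes had a difference above 0 and 9 below. When either TCDD array or DMSO replicate 2 was left out, all 8 limma calls in the 7 lists were lost, while 24 features of these lists were called without DMSO replicate 1.

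**Figure D4:**
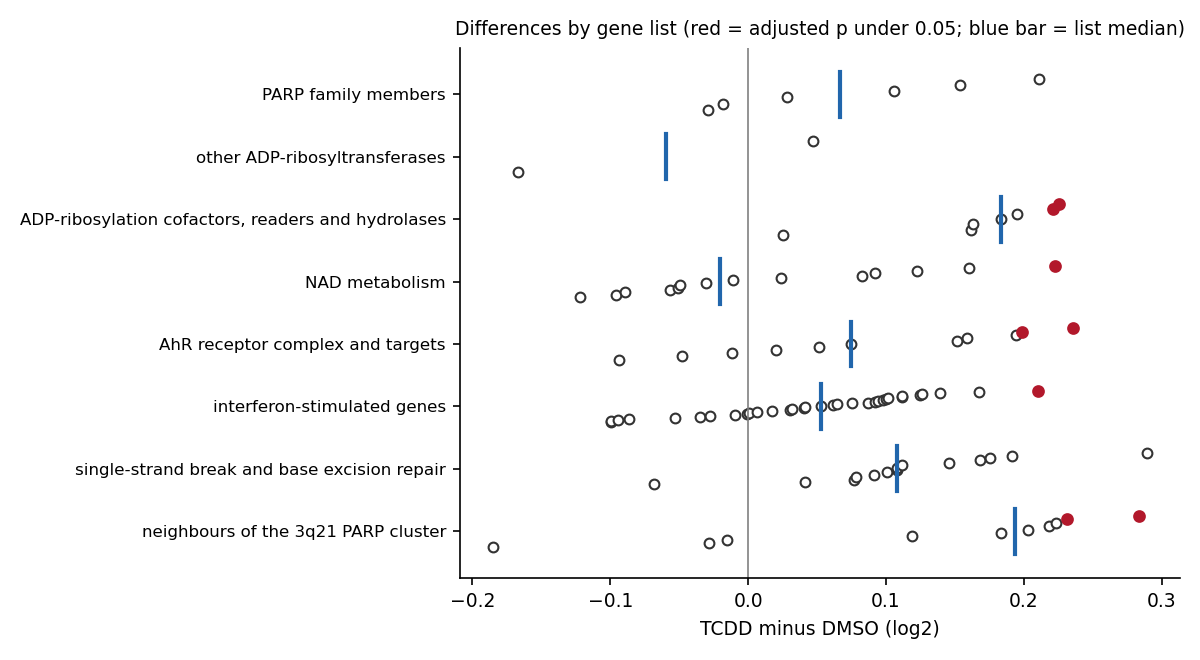
TCDD minus DMSO differences (log2, horizontal axis) of the 6 members and of the measured features of 7 gene lists, with red points for features called at an adjusted p under 0.05 and blue bars for list medians. The member median is 0.067, and the cofactor list (0.18) and the chromosome 3 neighbours (0.19) have the highest medians of the sets drawn.

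Markers of the states that neuroblastoma cells can take were also compared, beside 9.41% of all features called higher in TCDD and 8.01% called lower. With so few markers, their counts cannot be compared closely with these shares. Of 6 measured mesenchymal markers, 3 rose and 0 fell by limma, PRRX1, a homeobox factor (0.26, SE 0.051, limma adjusted p = 0.026), TGFBR2, a TGF-beta receptor (0.22, SE 0.049, limma adjusted p = 0.034), and NOTCH2, a Notch receptor (0.23, SE 0.059, limma adjusted p = 0.048). All 6 differences were above 0 under each scaling tried, with a median of 0.18, and of 0.066 under quantile and 0.065 after cyclic loess normalization, where TGFBR2 passed (0.22 and 0.20) and PRRX1 (0.16 and 0.17) and NOTCH2 (0.095 and 0.098) did not. Apart from TGFBR2, the mesenchymal markers lay in the signal classes where the medians of all features were 0.072 and 0.12. Of 7 noradrenergic markers, 1 rose and 0 fell by limma, HAND1, a basic helix-loop-helix factor (0.22, SE 0.057, limma adjusted p = 0.049), but which missed the threshold under quantile (0.070) or cyclic loess normalization (0.095). Their median was 0.091, with 4 differences above 0 and 3 below. After cyclic loess normalization the median was -0.013, with 2 above 0 and 5 below.

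Markers of immune cells had differences below 0 in 11 of 11 cases, and in 9 of 11 under quantile and cyclic loess normalization. Of the 11, 0 rose and 2 fell by limma, beside 8.01% of all features called lower in TCDD. The 2 were FCGR3A, an Fc receptor (-0.29, SE 0.056, limma adjusted p = 0.025), and CD74, the invariant chain (-0.22, SE 0.053, limma adjusted p = 0.043). The mean signal of the 11 was 7.37 and 7.41 on the TCDD arrays, against 7.48 and 7.56 on the DMSO arrays, and 9 of them, FCGR3A included, lay under the olfactory receptor level. These 9 lay in the signal classes where the medians of all features were -0.053, -0.052 and -0.017. PTPRC, the common leukocyte antigen, had a mean signal of 6.18. All 4 endothelial and all 3 Schwann and glial markers also had differences below 0, with medians of -0.064 and -0.14. Under median centring, 1 of the 3 Schwann and glial markers was above 0. By limma, 0 of these 7 passed at an adjusted p under 0.05, beside 17.4% of all features. At an unadjusted p under 0.05, 1 endothelial and 2 Schwann and glial markers passed by limma, beside 39.5% of all features. All 6 marker genes called here lost their limma call when either TCDD array or DMSO replicate 2 was left out. The part of these marker differences in those of the members was not tested.

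By the root mean square distance between values centred on each feature's mean over the 4 arrays, HIGD1A, a hypoxia-induced mitochondrial gene, was the protein-coding feature most like TIPARP, at 0.0040 among 5228 compared. VWA1 and IRS1 followed at 0.0082 and 0.0083. The nearest features were ELP6, SLC30A5 and ILKAP for PARP1 (0.0034 to 0.0042), XKR8, METTL8 and YTHDC1 for PARP8 (0.0021 to 0.0033), and CYS1, SEMA3G and TINAGL1 for PARP9 (0.0038 to 0.0056). They were ZNF669, ARMC8 and XRN1 for PARP14 (0.0048 to 0.0053), and VEPH1, SLC1A3 and CRB1 for PARP15 (0.0037 to 0.0055). These distances rest on 4 arrays. No member was among the 3 features nearest to another member. With only 3 of 5228 features taken for each, this does not show whether the members were alike.

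**Figure D5:**
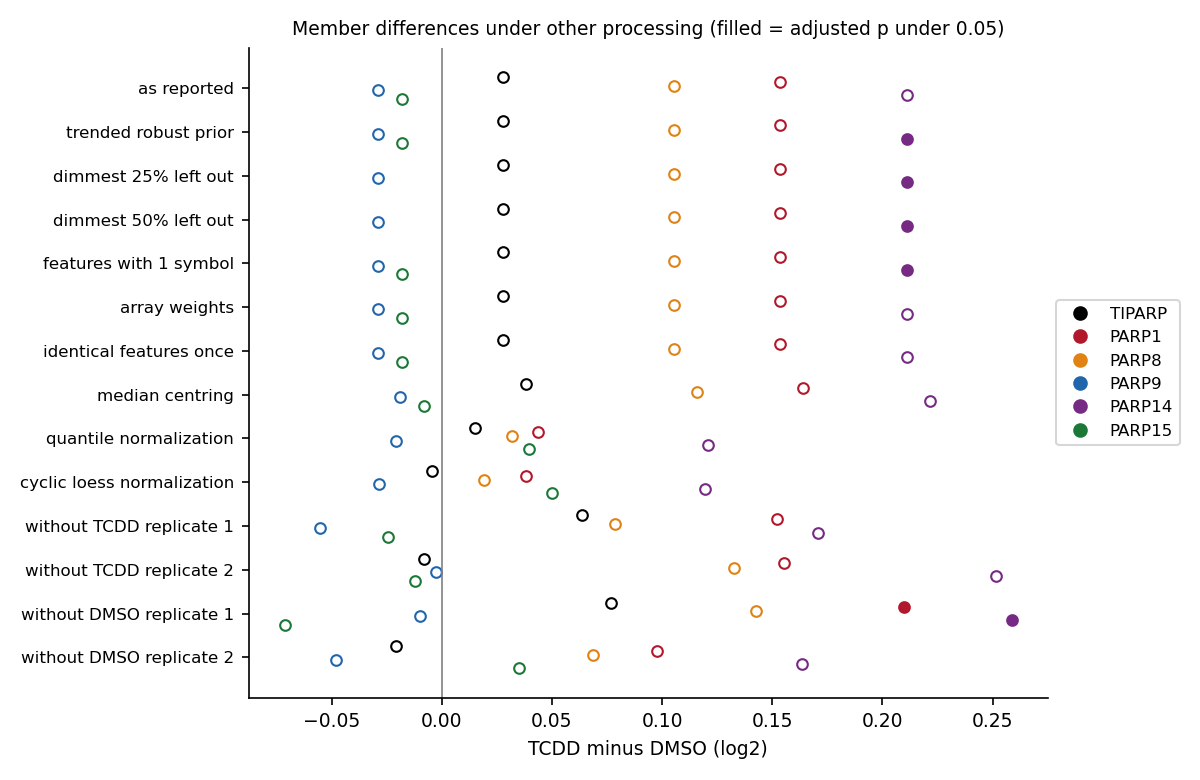
TCDD minus DMSO difference (log2, horizontal axis) of each member as reported and under other processing (rows), with filled points where the adjusted p was under 0.05. PARP14 has the highest difference in every row drawn, from 0.12 after cyclic loess normalization to 0.26 without DMSO replicate 1, while TIPARP lies on either side of 0.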

How the data were processed

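The authors' deposited values were log2 signals per transcript cluster. RMA is the method that the submitters' processing notes name. Its settings and version, and the genome build, are not given in the sources used here. RMA puts arrays on a common scale and summarises probes, so exon-level or isoform changes are averaged within a gene. Scale and direction needed no change, and no value was imputed or dropped.

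Groups came from the sample titles. Gene symbols of the platform annotation were replaced by current RefSeq names (5930 by Entrez identifier, 618 as current symbols, 97 by synonym, 2 kept), while 341 features had several symbols and 6505 had none here. No member shared its values with another feature.

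All 13493 features were fitted with limma 3.58.1 in R 4.3.3 (lmFit and eBayes, TCDD minus DMSO, no block, 2 residual degrees of freedom and a prior of 4.27). Tests were two-sided, with p-values adjusted by Benjamini-Hochberg over all features, and called under 0.05. Intervals are at 95%. The functions were tested on simulated arrays. Alternatives were a replicate block, quantile and cyclic loess normalization, median centring, filters on dim features (25% and 50%), a trended robust prior, array weights, identical features once, features with 1 symbol alone, and each array left out.

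The members, lists and alternatives were chosen with earlier results of these data known. Named genes were all members, the called genes of each pathway and marker list, genes that the member descriptions turn on, and the 3 nearest features of each member. CSTA, ART3, SSR3, LEKR1, MACROH2A1, NUDT16, APLF and the marker genes were named after their values had been seen. Protein sequences were not used here. AHRR and ADPRH had no feature with a single symbol and were not analysed here.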

Additional observations from a re-analysis of the deposited data

How the results depend on the processing

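The replicate numbers of the labels were shared between the groups, but the deviations of same-numbered arrays from their group means correlated at 0.037 across features, so they were treated as numbers only. With the replicate block, 3634 features, 1 member and 14 list features were called, against 2351, 0 and 8 without it. Under that block every member had the same SE of 0.078, against 0.053 to 0.061 in the main fit. With either TCDD array left out, every member had an SE of 0.115. These fits thus gave the members a common spread, not one of their own. Quantile normalization gave 1478 features. The called member was PARP14 (0.21 in each fit), under the block (limma adjusted p = 0.030), the dimmest 25% (0.048) or 50% (0.039) left out, the trended robust prior (0.046) and features with 1 symbol alone (0.032), which gave 1 member each. List features called numbered 2 (quantile), 3 (cyclic loess), 3 (array weights), 13 (dimmest 25% out), 14 (dimmest 50% out), 13 (trended robust prior) and 21 (1 symbol). With 1 array left out, calls ran from 644 to 4661 features, 0 to 2 members and 0 to 24 list features. Differences then ran from -0.021 to 0.077 (TIPARP), 0.098 to 0.21 (PARP1), 0.069 to 0.14 (PARP8), -0.055 to -0.0027 (PARP9), 0.16 to 0.26 (PARP14), -0.071 to 0.035 (PARP15), -0.0011 to 0.051 (APLF) and -0.056 to 0.033 (the brighter CYP1B1 feature). The sign turned for TIPARP after cyclic loess (-0.0044), for PARP15 under quantile (0.040) and cyclic loess normalization (0.050), and for PARP3 under quantile (-0.069) and cyclic loess normalization (-0.062). The cause of these changes was not tested. PARP15 lay among the dimmest 25% and has no value under the filters. The median of all features moved by less than 0.1 under each scaling. LMCD1, IFI6, NUDT12 and FAM162A were called in 8 of 14 alternatives, and WDR5B in 11 of 14.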
